A study of Mus musculus with 6 samples.

Results

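The genes described here encode the proteins of the cytosolic ribosome. They were taken as every probe of the array whose single gene symbol starts with Rpl or Rps and a number, or is Rplp0, Rplp1, Rplp2 or Rpsa. The S6 kinases, Rps19bp1, Rpl22l1, Rpl7l1 and pseudogenes were left out. This gave 69 probes for 59 genes, of 14411 probes with 1 gene symbol and 33012 probes in all, and these genes comprise 20 of the small subunit, 36 of the large subunit and the 3 of the stalk. RNA came from the distal midgut, the part of the primitive gut that forms most of the small intestine, of mouse embryos at E13.5. The 3 Id2+/+ and the 3 Id2-/- samples were littermates and were each hybridized to 1 single-color array of Applied Biosystems. Id2-/- embryos lack Id2, an inhibitor of basic helix-loop-helix transcription factors, in all of their cells, and the methods describe Id2 mutants on an inbred and on a mixed background without saying which of these gave the embryos on the arrays. Whether a sample was a single embryo or a pool is not stated, so a p-value here measures the spread between the samples as given, which may be technical. The design compares the midgut with and without Id2.

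Each ribosome is built from ribosomal RNA and one copy of nearly every protein described here, with the small subunit reading the mRNA and the large subunit joining amino acids. The acidic proteins Rplp1 and Rplp2 bind Rplp0 to form a flexible stalk on the large subunit that recruits translation factors. Growing embryonic tissue makes ribosomes at a high rate, and most mRNAs of these proteins begin with a C followed by a run of pyrimidines, the 5′ terminal oligopyrimidine (TOP) tract, through which the mTOR pathway controls their translation together.

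The TOP tract is the sequence feature that these genes are known to share and that their selection by name did not use, so it was read from the start sites of the RefSeq mouse genome (GRCm38.p6). RefSeq promoters, each of 250 bases before and 50 bases from the start of a transcript, matched 49 of the 59 genes with 60 promoters on 16 chromosomes. No entry was matched for Rpl3, Rpl7, Rpl17, Rpl21, Rpl30, Rpl32, Rpl36, Rplp1, Rps14 and Rps29. Windows of 30 bases, 10 before and 20 from the annotated start, follow for genes whose array values are described further on. Capitals mark a C and at least 7 pyrimidines after it, on the strand of the gene, taken from the first such C no more than 5 bases from the start. In Rpl14 and Rpl34 the first C of the run of pyrimidines lies further upstream, in the lower-case letters. In Rpl38 and Rplp2 the run also begins before the capitals, but only with T.
Rpl13a (chr7:45128726-45128755, minus strand): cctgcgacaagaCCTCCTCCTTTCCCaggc
Rpl14 (chr9:120571507-120571536, plus strand): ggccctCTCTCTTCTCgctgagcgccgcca
Rpl27a (chr7:109519185-109519214, plus strand): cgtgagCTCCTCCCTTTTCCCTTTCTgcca
Rpl34 (chr3:130730318-130730347, minus strand): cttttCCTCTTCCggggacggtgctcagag
Rpl38 (chr11:114668570-114668599, plus strand): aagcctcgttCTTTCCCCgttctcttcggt
Rplp2 (chr7:141447641-141447670, plus strand): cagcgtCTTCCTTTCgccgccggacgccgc
Rps6 (chr4:86857348-86857377, minus strand): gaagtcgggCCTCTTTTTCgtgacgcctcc

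Such a tract started within 5 bases of an annotated start in 16 of the 49 genes (32.7%), against 5.17% of 27025 genes with a promoter. Counted only where the whole run of pyrimidines had its first C within 5 bases, which leaves out Rpl14, Rpl34 and Rpl35, it was 13 genes (26.5%) against 4.4%. A tract started between 10 bases before and 30 bases after the start in 29 of the 49 genes (59.2%), against 14.9% of all genes. A shift of a few bases in the annotated start moves a gene in or out of the narrower count. Windows of 3 paralogs of the family held no tract near the start, as was so for most of the 49 genes. They are Rpl39l, known from the testis, Rpl3l, known from striated muscle, and Rps27l, a paralog of Rps27 that is known as a target of Trp53. Rpl3l and Rps27l each have another annotated start, also without a tract, that is not shown.
Rpl39l (chr16:10170218-10170247, plus strand): aggcctttccggatttccggtggtcgccat
Rpl3l (chr17:24727816-24727845, plus strand): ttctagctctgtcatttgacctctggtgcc
Rps27l (chr9:66946076-66946105, plus strand): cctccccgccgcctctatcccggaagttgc

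The letters CGGAAG, the core bound by ETS-family factors such as GABP, stood on either strand in the promoters of 35 of the 49 genes (71.4%), against 18.8% of all genes. Capitals mark them in windows of 3 promoters, on the strand of the gene, where CTTCCG is the same letters on the other strand and Rpl38 has 2 adjacent copies.
Rpl37a (chr1:72711230-72711259, plus strand): aggaggtcgcgtcaCTTCCGctcgccggtc
Rpl38 (chr11:114668550-114668579, plus strand): ggttaaccgtcCGGAAGCGGAAGcctcgtt
Rps12 (chr10:23787302-23787331, minus strand): cgctcctaaaggCGGAAGtggaaactccta

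Searched on both strands, CTCGCGAG was found in 7 of the 49 genes (14.3%) and in 1.04% of all genes, GGGCGG in 27 (55.1%) and 38.2%, and CACGTG, the E-box core bound by Myc, in 5 (10.2%) and 8.09%. The TATA box letters TATAAA were found in 5 (10.2%) and 15.7%. Matches of different motifs may share bases at their ends, as CGGAAG and GGGCGG can, and each was counted. A match describes letters and not a bound factor.

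All 69 probes were unflagged on the 6 arrays. Of these, 64 probes for 55 genes, 19 of the small subunit, 33 of the large subunit and the 3 of the stalk, had a signal-to-noise value of at least 3, taken as above background, on every array of at least one genotype and entered the test with 12741 probes in all. Signals are given as log2 of the median-normalized value. Where a gene had several tested probes, the brightest stands for it. The labelled tissue was checked on Cdx2, a transcription factor of the intestinal epithelium, which was measured at 5.55 to 7.05 on the Id2+/+ arrays and 5.97 to 6.16 on the Id2-/- arrays. Id2 itself was not analysed here, and the genotypes are those of the labels.

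Ribosomal protein probes were among the brightest on the arrays. The 64 tested probes had a median log2 signal of 10.22 (range 2.25 to 11.53), against 3.60 for all tested probes. With the brightest probe for each gene the median was 10.40 (range 6.41 to 11.53). Of the 55 genes so taken, 26 lay in the top 1% of tested probes, 51 in the top 5% and 54 in the top 10%. Only 31 of the 100 brightest probes had 1 gene symbol, and 18 of these were of the family. Probes differ in how well they bind, so these ranks are of signals and not of RNA amounts. Ribosomal protein genes have many near-identical pseudogene copies in the genome, so a probe may also bind other transcripts, and this was not resolved here. The scanner software marked 57 spots of these probes with flag 4, of 273 such spots on the 6 arrays. All 273 had a log2 signal of at least 9.85, and no source used here gives the meaning of the mark. Rpl32, Rpl39 and Rps12 carried it on all 6 arrays, and 15 probes on at least 1.

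The share of the summed signal of the 32189 unflagged probes that came from the 55 genes did not separate the genotypes. It was 8.86%, 7.71% and 7.89% on the Id2+/+ arrays numbered 1, 2 and 3 and 7.76%, 7.92% and 7.67% on the Id2-/- arrays. The means were 8.15% ± 0.618 and 7.78% ± 0.122 (SD, n = 3 each). The Id2+/+ array numbered 1 had the highest share, and the other 5 arrays lay within 7.67% to 7.92%. The difference of -0.369 percentage points had p = 0.50 in a two-sided exact permutation test, which with 3 against 3 arrays cannot go below 0.10. In tissue of mixed cell types, fewer cells of a type and less RNA per cell cannot be told apart.

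**Figure D1:**
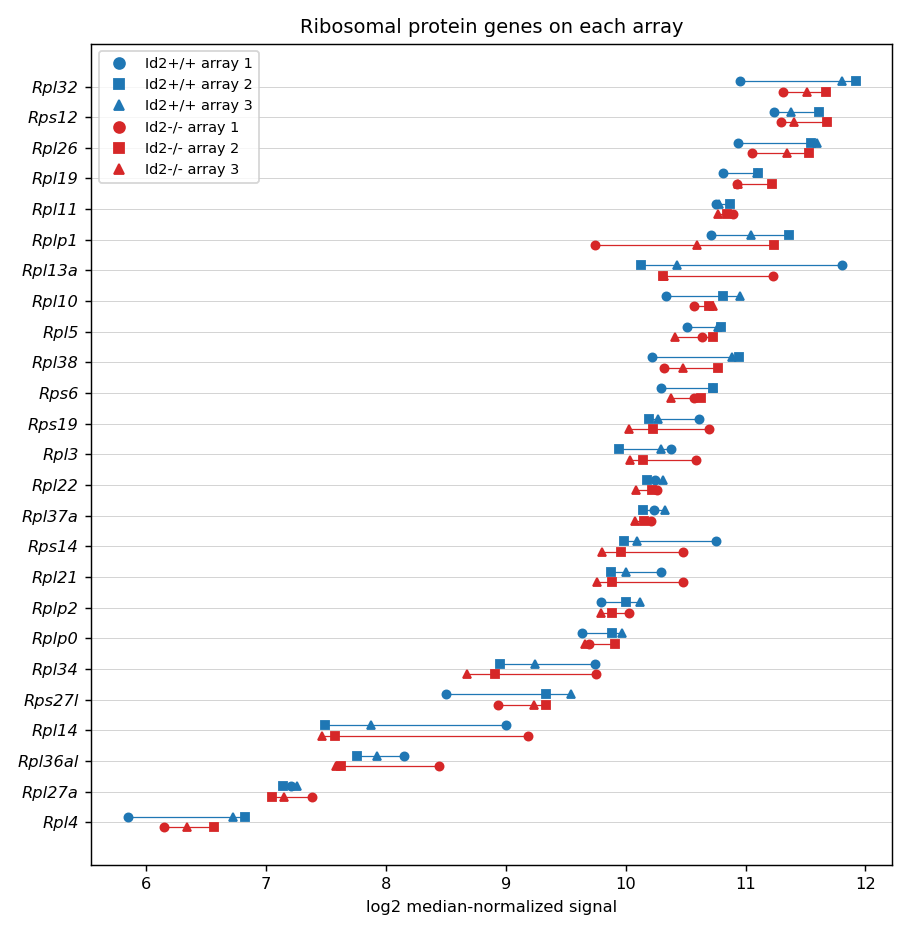
Log2 median-normalized signal (x axis) of 25 ribosomal protein genes on each of the 6 arrays, ordered by mean signal. Circles, squares and triangles are arrays numbered 1, 2 and 3, blue is Id2+/+, red is Id2-/-, and lines span the 3 arrays of a genotype. The genotypes overlap in every gene, and the circles lie at an end of the range in most, to the right in Rpl13a (11.81 and 11.23) and to the left in Rplp1 (10.72 and 9.74).

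No ribosomal protein gene was called different between Id2-/- and Id2+/+ embryos. With limma and Benjamini-Hochberg adjustment over all tested probes, 0 of the 64 probes passed 0.05 in either direction, and the same holds for all tested probes (0.0% higher and 0.0% lower). None of the 64 probes had an unadjusted p under 0.05, against 234 of 12741 (1.84%), and the smallest was 0.247. The labels number the arrays of each genotype 1 to 3, and with the array number as a block 0 of the 64 probes passed, where 1.06% of all tested probes were called higher and 1.12% lower. The smallest adjusted p of the 64 probes in that limma fit was 0.815. In no gene did the 3 Id2-/- arrays lie all above or all below the 3 Id2+/+ arrays, a pattern found in 2.73% and 1.29% of all tested probes.

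The differences were small. Their median, Id2-/- minus Id2+/+, was -0.06 on the log2 scale over the 55 genes and 0.04 over all tested probes, with a range of -0.51 to 0.05. In 43 of the 55 genes (78.2%) the difference was smaller than 0.1 in size, against 42.4% of all tested probes. This share depended on the scaling, at 85.5% against 44.9% after quantile normalization and 45.5% against 44.5% after centring each array on the tested probes. The sign was negative in 46 of 55 genes, against 39.6% of all tested probes. It was negative in 40 genes with a median of -0.01 after quantile normalization and in 53 with a median of -0.11 after centring. Of all tested probes, 46.2% and 49.9% were negative under these scalings, with medians of 0.01 and 0.00036. By subunit, the median was -0.06 for the small subunit (14 of 19 negative), -0.05 for the large subunit (29 of 33) and -0.07 for the stalk (3 of 3).

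Bright probes had a smaller spread than probes in general, so other bright probes were set beside the family. Among probes with a mean log2 signal of at least 10, a limit chosen after the values were seen, the median difference was -0.06 for 37 ribosomal protein genes (29 negative) and -0.03 for 174 other probes (114 negative). The median size of the difference was 0.06 and 0.05, and the median SD within genotypes 0.215 and 0.247. At this signal, other probes had differences of like size. Probes without a gene symbol counted among the others, which may therefore hold ribosomal protein probes that were not assigned here.

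**Figure D2:**
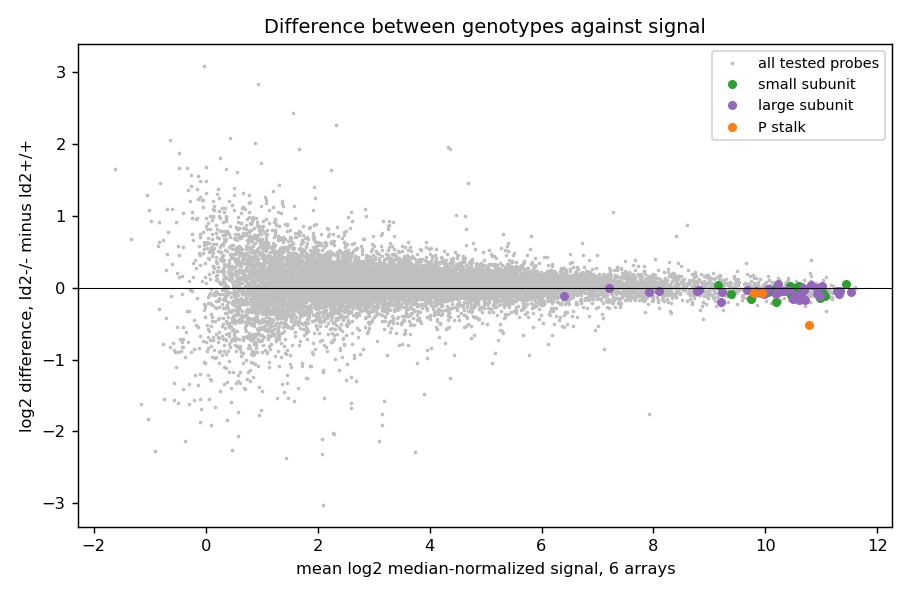
Difference Id2-/- minus Id2+/+ (log2, y axis) against the mean log2 median-normalized signal over 6 arrays (x axis). Gray points are the 12741 tested probes and colored points 55 ribosomal protein genes by subunit, 1 probe each; they lie at the bright end between -0.51 (Rplp1) and 0.05.

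The precision of these differences varied among the genes. Standard errors had a median of 0.26 (range 0.22 to 0.57), and the 95% interval of the median gene reached 0.61 to either side. The interval lay within ±1 on the log2 scale for 51 of the 55 genes, against 58.0% of all tested probes. The 4 others were Rpl13a, Rpl14, Rpl34 and Rplp1. With the array number as a block, limma gave all of the 55 genes the same standard error of 0.275. The interval lay within ±1 for 54 of them, against 90.9% of all tested probes, with Rplp1 (-1.05 to 0.02) the exception. With a shared standard error this count reflects only the size of the differences and not the precision of each gene.

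The 3 stalk proteins are taken first. Rplp1, an acidic stalk protein, had the largest difference of the family. Its log2 signal was 10.72, 11.36 and 11.05 on the Id2+/+ arrays numbered 1 to 3 and 9.74, 11.24 and 10.60 on the Id2-/- arrays. The Id2-/- array numbered 1 was the lowest, and the other 2 Id2-/- arrays lay within or just under the Id2+/+ range. The difference was -0.51 ± 0.41 (SE, n = 3 each; limma, adjusted p = 1.0; 95% interval -1.48 to 0.45). Rplp1 was lower in Id2-/- in all 3 same-numbered pairs, by differences of -0.97, -0.12 and -0.45. It shrank to -0.12 when the Id2-/- array numbered 1 was left out. Its partner Rplp2 did not follow it: the Id2+/+ arrays read 9.79, 10.01 and 10.12 and the Id2-/- arrays 10.02, 9.89 and 9.80, a difference of -0.07 (95% interval -0.61 to 0.47). Rplp0, which anchors both, read 9.63, 9.89 and 9.97 against 9.70, 9.91 and 9.66.

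Several large-subunit proteins have roles in assembly or outside of the ribosome. Rpl5 and Rpl11 form a particle with a ribosomal RNA that, when ribosome assembly fails, binds Mdm2 and stabilizes Trp53. Rpl5 read 10.51, 10.79 and 10.77 on the Id2+/+ arrays and 10.64, 10.73 and 10.41 on the Id2-/- arrays. Rpl11 read 10.75, 10.87 and 10.78 against 10.90, 10.85 and 10.77, and its SD within genotypes was the smallest of the family. The differences were -0.10 (95% interval -0.65 to 0.45) and 0.04 (-0.47 to 0.55). The arrays of both genotypes lay close together in each gene.

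Rpl38, needed for the translation of some Hox mRNAs and for axial patterning in the mouse, read 10.22, 10.95 and 10.89 on the Id2+/+ arrays and 10.32, 10.77 and 10.48 on the Id2-/- arrays. The difference was -0.16 (95% interval -0.85 to 0.52), among the 5 lowest of the family, and the arrays numbered 1 were the lowest of their genotypes. Rpl10, whose joining is a late step of large-subunit maturation, read 10.33, 10.81 and 10.95 against 10.57, 10.69 and 10.73. Rpl22, a protein that cells can lose and replace by its paralog Rpl22l1, read 10.25, 10.18 and 10.31 against 10.26, 10.22 and 10.08. Rpl37a, a zinc-binding protein of the large subunit, read 10.24, 10.14 and 10.33 against 10.21, 10.16 and 10.08. Rpl22 and Rpl37a were, with Rpl11, the 3 genes with the smallest spread.

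Rpl13a, also known from a complex that silences translation of inflammatory mRNAs, was among those with the largest spread. It read 11.81, 10.13 and 10.43 on the Id2+/+ arrays and 11.23, 10.31 and 10.32 on the Id2-/- arrays. Both arrays numbered 1 were the highest of their genotypes by about a log2 unit or more. The difference between genotypes was -0.17 ± 0.49 (SE, n = 3 each; 95% interval -1.33 to 0.99), and it turned to 0.34 without the Id2+/+ array numbered 1. Rpl34, another large-subunit protein, had the second lowest difference, -0.20 (-1.06 to 0.65). It read 9.75, 8.95 and 9.25 against 9.75, 8.91 and 8.68, so that the arrays numbered 1 were equal and the gap came from those numbered 3. It came to 0.01 when either the Id2+/+ array numbered 1 or the Id2-/- array numbered 3 was left out.

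Rpl3 and Rpl4 are large-subunit proteins near the catalytic center and the exit tunnel. Rpl3 read 10.38, 9.95 and 10.29 on the Id2+/+ arrays and 10.58, 10.14 and 10.04 on the Id2-/- arrays, a difference of 0.05 (95% interval -0.57 to 0.67). Rpl4 read 5.85, 6.83 and 6.73 against 6.15, 6.57 and 6.34, the dimmest tested probe to stand for a gene, with a difference of -0.11 (-0.88 to 0.65). The genotypes overlapped in both. Rpl19 and Rpl32, further proteins of the large subunit, differed by 0.03 (-0.52 to 0.58) and -0.06 (-0.82 to 0.69). Rpl32 was the brightest gene at 10.95, 11.92 and 11.81 against 11.31, 11.67 and 11.51. Of the dimmest genes, Rpl27a, a gene that causes anemia and growth defects when mutated in mice, differed by -0.01 and Rpl36al, a copy of Rpl36a, by -0.06.

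In the small subunit, Rps6, the target of the S6 kinases downstream of mTOR, read 10.30, 10.73 and 10.73 on the Id2+/+ arrays and 10.57, 10.63 and 10.38 on the Id2-/- arrays. The difference was -0.06 (95% interval -0.63 to 0.51). Rps19, the gene most often mutated in Diamond-Blackfan anemia, read 10.61, 10.19 and 10.27 against 10.69, 10.22 and 10.02, a difference of -0.05 (-0.69 to 0.60). Neither gene separated the genotypes. Rps14, whose loss on one chromosome underlies the anemia of the 5q- syndrome, had the lowest difference of the small subunit, -0.20 (-0.94 to 0.55), at 10.76, 9.98 and 10.09 against 10.48, 9.96 and 9.80. It turned to 0.04 without the Id2+/+ array numbered 1. The highest of the family was Rps12 at 0.05 (-0.52 to 0.62), with 11.24, 11.61 and 11.38 against 11.30, 11.68 and 11.40. Rps27l, the Trp53 target, read 8.50, 9.34 and 9.54 against 8.93, 9.34 and 9.23, a difference of 0.04 (-0.74 to 0.82) that turned to -0.27 without the Id2+/+ array numbered 1.

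Probes of 4 genes and a second probe of Rps15a did not pass the filter and were not tested. Rpl3l was above background on 0 of the 6 arrays (log2 signal -1.03 to 0.06) and Rpl39l on 2 (-0.52 to 1.23), the paralogs known from muscle and testis. The probe of Rpsa, known also as a laminin receptor, was at -1.73 to -0.41 and above background on 0 arrays, and that of Rpl37 was at -1.0 to 0.82 and above background on 2. Rpsa and Rpl37 encode core proteins of the ribosome, so their low signals are measurements of these single probes and were not read as levels of the genes' RNA. Rpl10l, Rpl24, Rps3, Rps4l, Rps4y2, Rps20 and Rps27a were not analysed here.

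The largest differences within the family lay between array numbers and not between genotypes. The median SD within genotypes was 0.248 over the 55 genes (range 0.0615 to 0.880), against 0.402 over all tested probes. The arrays numbered 2 and 3 differed by a median of 0.13 in Id2+/+ and 0.14 in Id2-/-. The array numbered 1, set against the mean of those numbered 2 and 3 and averaged over genotypes, was offset by a median size of 0.36, from -0.83 in Rplp1 to 1.49 in Rpl14. For all tested probes that size was 0.53, and for the bright probes above 0.32 in the family and 0.34 in the others.

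The offset differed in sign from gene to gene. The array numbered 1 was the highest in both genotypes for 18 of the 55 genes, against 29.8% of all tested probes, and the lowest in both for 20, against 33.7%. It was neither for 17. Counts of highest and lowest were 6 and 9 in the small subunit, 12 and 10 in the large subunit and 0 and 1 in the stalk. Rpl14, Rpl13a, Rpl10a, Rpl34, Rps29 and Rps14 stood at the high end. Rplp1, Rps27l, Rpl4, Rpl32, Rps23 and Rpl26 stood at the low end. The offsets in Id2+/+ and in Id2-/- had the same sign in 45 of 55 genes, beside 9513 of the 12741 tested probes. After quantile normalization these counts were 44 and 10764. As deposited, the offsets correlated at 0.870 across the 55 genes, which share the same 6 arrays, as against 0.838 across all tested probes. The median offset of the family depended on the scaling. It was -0.04 as deposited, 0.14 after quantile normalization (28 genes highest and 9 lowest) and -0.14 after centring (17 and 25). Over all tested probes it was -0.08, -0.14 and -0.18 in the same order. After quantile normalization 50.9% of the family were highest and 16.4% lowest, against 31.3% and 42.7% of all tested probes. After centring these shares were 30.9% and 45.5%, against 29.5% and 45.2%.

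**Figure D3:**
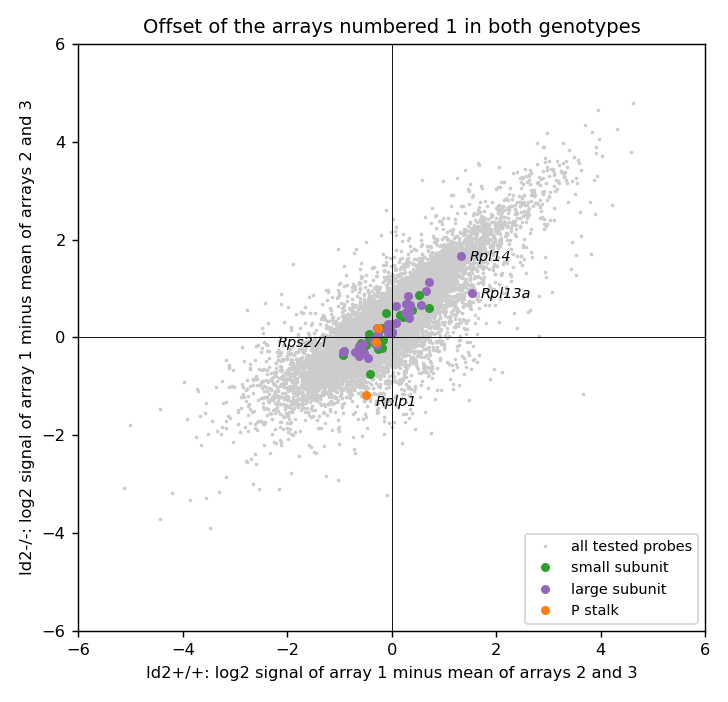
Log2 signal of the array numbered 1 minus the mean of those numbered 2 and 3, in Id2+/+ (x axis) and in Id2-/- (y axis). Gray points are all tested probes and colored points 55 ribosomal protein genes by subunit; most genes lie along the diagonal in the lower left and upper right, with Rpl14 and Rpl13a at the high end and Rplp1 and Rps27l at the low end.

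Different probes of a gene did not always share the offset. Of the 9 genes with more than 1 probe, 8 had more than 1 tested. The brighter Rpl14 probe read 9.0, 7.49 and 7.87 on the Id2+/+ arrays and 9.19, 7.57 and 7.46 on the Id2-/- arrays, an offset of 1.49. The dimmer Rpl14 probe read 4.49, 5.29 and 5.42 against 5.03, 5.17 and 5.01, an offset of -0.46. The Id2+/+ array numbered 1 was therefore the highest by the brighter probe and the lowest by the dimmer one, in the same RNA, while the Id2-/- array numbered 1 was the highest by the brighter probe and between the others by the dimmer one. The probes of Rpl34 had offsets of 0.80 and 1.88, those of Rpl26, a protein that also binds Trp53 mRNA, -0.51 and -0.73, those of Rps24 -0.32 and -0.51 and those of Rplp0 -0.19 and -0.12. The probes of Rpl22 had offsets of 0.06 and -0.34, those of Rpl21 0.51 and 0.04 and the 3 of Rpl31 -0.23, 0.19 and -0.02. For Rpl14, Rpl21 and Rplp0 the probes also differed in the sign of the difference between genotypes. For Rpl21 the bright probe read 10.30, 9.88 and 10.01 against 10.48, 9.88 and 9.76 (difference -0.02) and the dim one 2.11, 2.54 and 2.53 against 2.92, 2.25 and 2.59 (0.19).

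**Figure D4:**
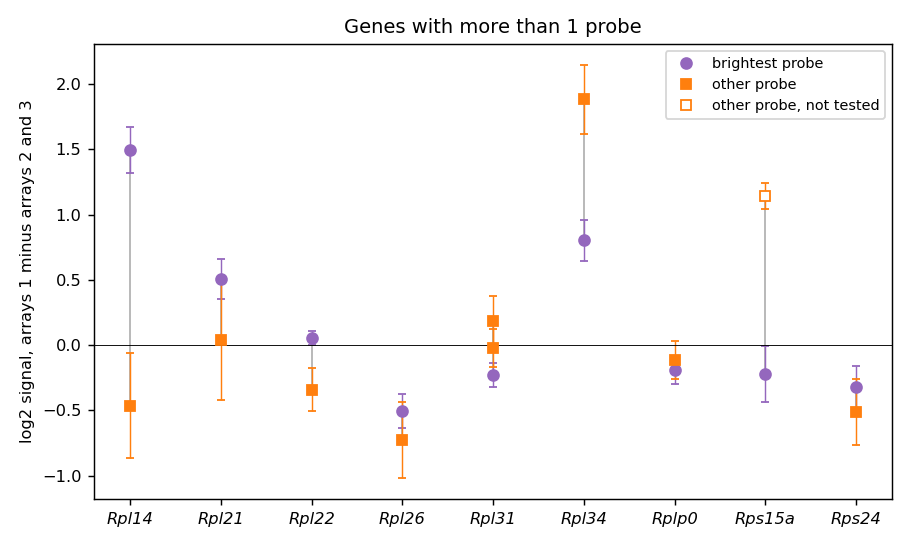
Offset of the arrays numbered 1 (log2 signal minus the mean of arrays 2 and 3, averaged over genotypes, y axis) for each probe of the 9 ribosomal protein genes with more than 1 probe. Circles are the brightest probe of a gene, squares the others, an open square a probe that was not tested, and bars run between the Id2+/+ and Id2-/- values; the probes of Rpl14 lie at 1.49 and -0.46.

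The genes with a tract near the start did not stand apart in the difference between genotypes. The median was -0.07 in the 16 genes with the tract and -0.06 in the 29 tested genes with a promoter and no tract. The arrays numbered 1 were highest in 6 and lowest in 3 of the 16, and highest in 6 and lowest in 14 of the 29. The 32 tested genes with CGGAAG had a median difference of -0.06 and the 13 without it -0.06. These values are descriptions of groups of genes that share arrays.

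Compared by array number and as deposited, the median differences of the family had the same signs as those of all tested probes. The median difference between the Id2-/- and the Id2+/+ array was 0.13 for number 1, -0.02 for number 2 and -0.27 for number 3, positive in 43, 21 and 1 of the 55 genes. Over all tested probes the medians were 0.35, -0.04 and -0.19, positive in 85.6%, 44.0% and 25.6%. After quantile normalization, which gives all arrays the same distribution of signals, the family's medians were -0.06, 0.05 and -0.06, against 0.02, 0.02 and -0.00307 for all tested probes. After centring they were -0.22, 0.03 and -0.10, positive in 2, 34 and 7 genes, against -0.00262, 0.01 and -0.03. Of all tested probes, 49.5%, 52.3% and 45.9% were positive after centring. The family's positive median of number 1 was thus found only as deposited, and turned negative under both other scalings.

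No other gene of the translation machinery, and none of the housekeeping references, in the 5 lists that follow was called in either direction with limma, with or without the block. Of 65 proteins of the mitochondrial ribosome, which is built from other genes than the cytosolic one, 62 were tested, with a median difference of -0.01 (29 positive, 33 negative). Mrpl51 differed by 0.27 and Mrps31 by -0.23, the genes of this list with the smallest p. Of 20 translation factors and other TOP mRNAs 14 were tested, with a median of 0.01 (8 positive, 6 negative). The translation initiation factor subunit Eif3h differed by -0.14 and the nucleolar chaperone Npm1 by -0.12. Of 61 ribosome biogenesis genes 47 were tested, with a median of 0.04 (32 positive, 15 negative). Ltv1, an assembly factor of the small subunit, differed by 0.48 and Rrs1, one of the large subunit, by 0.46. Of 15 regulators of ribosomal protein genes 6 were tested, with a median of 0.05. Mycn, a driver of ribosome production, read 5.13, 5.85 and 5.76 on the Id2+/+ arrays and 5.47, 5.15 and 5.03 on the Id2-/- arrays (difference -0.36), and Myc differed by -0.08. The housekeeping references Gapdh and Tubb5 differed by -0.09 and 0.12, and the median of 10 such genes was -0.03.

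**Figure D5:**
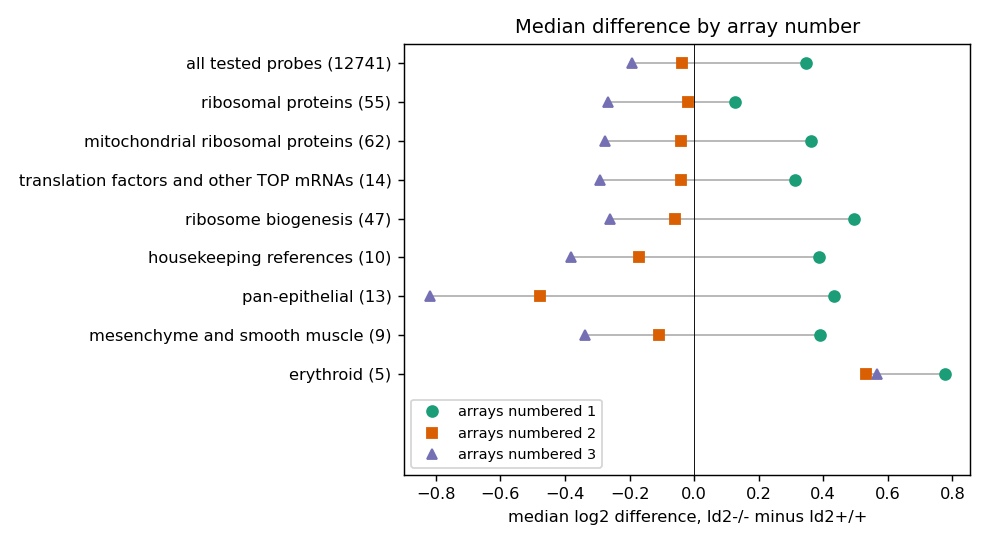
Median log2 difference Id2-/- minus Id2+/+ (x axis) between arrays of the same number, for all tested probes, for 55 ribosomal protein genes and for the listed gene groups (number of tested genes in parentheses). Circles, squares and triangles are arrays numbered 1, 2 and 3; ribosomal protein genes lie at 0.13, -0.02 and -0.27, and all tested probes at 0.35, -0.04 and -0.19.

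Markers of some cell types had larger median differences than the ribosomal protein genes. All 13 tested genes of 14 pan-epithelial markers had a negative difference, with a median difference of -0.28, and their medians by array number were 0.43, -0.48 and -0.82. Their summed level was 9.17 to 10.60 (log2) on the Id2+/+ arrays and 9.66 to 9.85 on the Id2-/- arrays. The keratin Krt19 differed by -0.42 and the protease inhibitor Spint2 by -0.39. Of 13 intestinal epithelial markers 9 were tested, all with a negative difference, with a median of -0.57 and a summed level of 6.85 to 8.73 against 7.03 to 7.58. With the block, 3 of these were called lower, the annexin Anxa13 (-2.13), the mucin Muc13 (-2.03) and the fatty acid binding protein Fabp1 (-1.61), and 0 without it. The block fit used a variance pooled over the probes and not each gene's own spread, so calls made with the block rest on that pooling. All 5 tested of 8 erythroid markers had a positive difference, with a median of 0.72 and a summed level of 10.27 to 10.80 against 10.55 to 11.19. The embryonic globins Hba-x and Hbb-y differed by 0.88 and 0.72, and neither was called. The 4 tested of 6 endothelial markers had a median of 0.42 (Pecam1 0.70, Tek 0.39). Other medians were near that of the family, at 0.04 for 9 of 13 mesenchymal markers (Pdgfra 0.39, Tagln -0.15), 0.07 for 3 of 8 enteric neural ones (Elavl4 0.07, Tubb3 0.07) and -0.09 for 5 of 8 macrophage ones (C1qa -0.20, C1qb -0.13). Of 8 markers each of pancreas and liver 2 were tested, Clps (1.62, called higher with the block) and Cpa1 (-0.41) and Afp (-0.55) and Ttr (-0.25). The part of these cell types in the signals of the ribosomal protein genes was not tested.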

How the data were processed

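RNA of 3 Id2+/+ and 3 Id2-/- distal midgut samples at E13.5 was amplified for 1 round, labeled with digoxigenin and hybridized to 6 single-color arrays. The deposited columns are a median-normalized intensity, a signal-to-noise score from the scanner software, and a flag code, a mark of another kind that the authors deposited per spot. The software version and background handling are not given in the sources used here. Per the methods, spots were dropped by flag and by a signal-to-noise value under 3. Flags of 5000 and above were taken as bad here, the opposite direction to the printed rule. Gene symbols came from the platform annotation, which gives 14411 of 33012 probes 1 symbol, 247 several and 18354 none here.

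Of 32189 probes without a bad flag on any of the 6 arrays, those with a signal-to-noise value of at least 3 on every array of at least one genotype were tested (12741 probes). Log2 intensities were fitted with limma 3.58.1 (lmFit, eBayes) in R 4.3.3 over all tested probes, with Benjamini-Hochberg adjustment at 0.05 and no block. The number of arrays limits the precision. The script was tested on simulated data. Figures used matplotlib 3.10.9.

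Members and lists were chosen with earlier results of these data known. Named genes are members with a textbook role, the listed paralogs, those with the 5 largest and 5 smallest differences, the 3 highest and 3 lowest signals, the 3 largest and 3 smallest SDs, those whose probes differ in sign, and in each list the 2 genes with the smallest p. Other genes appear in the text as examples of array offsets or motifs, as a tissue check or to complete a small count of calls, and were chosen after their values were seen. Deviations from the genotype mean were correlated between arrays of the same number (0.838, 0.644 and 0.579 across tested probes). The number was therefore used as a block in an alternative fit, although the labels say only that embryos were littermates. The main fit, with its standard errors, intervals and p-values, did not use it. Alternatives were the block, quantile normalization, centring on the tested probes, other filters, an offset, another prior, the series table, the methods' t-test and leaving out each array.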

Additional observations from a re-analysis of the deposited data

How the results depend on the processing

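The count of ribosomal protein probes called between genotypes was 0 in each direction under all 18 alternatives, namely the replicate block, alone and with quantile normalization or centring, each scaling alone, the filters, the offset, the prior, the series table, the methods' t-test, and leaving out each array. Leaving out probes with flag 4 and joining the block with centring were chosen after seeing the data. With the replicate block the median difference over the genes stayed at -0.06, since the design is balanced, and the block changed no other call of a ribosomal protein gene. The methods' t-test gave 0 of the 64 probes an unadjusted p under 0.05, against 242 of all tested probes. Leaving out 1 array moved the median difference from -0.13 (without the Id2+/+ array numbered 1) to -0.00188 (without the Id2-/- array numbered 3), and the median offset of the arrays numbered 1 from -0.18 to 0.09. Quantile normalization and centring gave median differences of -0.01 and -0.11. For single genes, 443 alternative fits kept the absence of a call, and the sign of the difference changed in 55 of them, in 19 of 25 genes. The largest difference among those genes was 0.205 in size. With 3 arrays per genotype the 95% interval of the median gene reached 0.61 to either side, so smaller differences were not detectable. The interval was not adjusted for the number of tested probes. Without the block larger differences also went uncalled, as in Anxa13 (-2.13). Signal ranks depend on the probes.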
